A study of Mus musculus with 6 samples.

Results

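The genes described here build the DNA replication machinery and carry cells through S phase. They are 37 named genes of the 55341 gene symbols listed in the count tables and were taken by gene symbol. The list runs from origin licensing factors and the MCM helicase to polymerases, the sliding clamp, nucleotide supply, chromatin assembly and the cyclin E and E2F switch into S phase. All 37 passed the filter on low counts and were among the 16729 genes tested.

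RNA was sequenced from cultured mouse cerebellar granule neurons (CGNs), the small excitatory neurons of the cerebellum, to ask how blocking the histone methyltransferase EZH2 in young postmitotic neurons alters expression. The cells were purified from granule neuron progenitors of CD1-IGS mouse pups in the first postnatal week or just after it, each replicate being a pool of litters and both sexes. Every culture, controls included, had received AraC, a cytosine analog that blocks DNA synthesis in dividing cells, before treatment. The DMSO group (3 libraries) then received vehicle at DIV3, the third day in vitro, and the GSK-126 group (3 libraries) received the EZH2 inhibitor GSK-126 at DIV3, a single time. The study's methods place RNA collection on the fifth day in vitro, whereas the sample labels name cerebellum as the tissue and D3 as the time. The dose used at DIV3 was not given in the sources used here. Because the RNA is bulk, a lower level of a replication gene can come from fewer cycling cells or from less RNA per cycling cell, and these cannot be told apart.

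In a cycling cell, the origin recognition complex (ORC), CDC6 and CDT1 load the MCM2-7 ring onto DNA in G1. CDC45 and the GINS complex then turn the loaded ring into an active helicase, and PCNA, loaded by replication factor C (RFC), holds the polymerases on the template. Most of these genes are E2F targets, transcribed as cells pass from G1 to S and silenced when granule neuron progenitors leave the cell cycle. EZH2, the target of GSK-126, writes H3K27me3, a repressive histone mark.

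Promoters of the group carried E2F-type words more often than promoters in general. RefSeq windows (GRCm38.p6) from 250 bases before to 50 bases after the start site were present for 31 of the 37 genes, with 35 windows in all. The words searched were TTTCCCGC, TTTCGCGC, TTTGCCGC and TTTGGCGC on both strands, and some occurrences overlap each other. They occurred in 12 of the 35 member windows (34.3%), against 744 of 32851 windows of all genes (2.26%). The GC content of the windows differed as well, with a median of 61.3% for the members and 52.7% for all windows, and its part in the difference was not tested. Among all windows at or above the lowest GC content of any member window (38.7%), 2.44% held an E2F word. That cut kept 30251 of the 32851 windows, so it did not match the windows on GC content. CCAAT stood in 60.0% of member windows and 37.4% of all windows, the GC box GGGCGG in 71.4% and 35.7%, and the CRE core TGACGT in 22.9% and 7.51%. TTTGAA and TTCGAA, searched as words of cell cycle genes expressed later in the cycle, stood in 17.1% and 19.2%. These matches are a description of letters and not evidence of binding.

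The sites below, from 3 licensing and 4 MCM genes, show what such a word looks like in its promoter. The windows of Orc6 and Mcm2, of the same roles, held none. Each is read 5′ to 3′ on the strand of its gene, with the E2F word in capitals.
Orc1, plus strand, chr4:108579421-108579440: ttagtgGCGCGAAAagtttt
Cdc6, plus strand, chr11:98908007-98908026: tggagaGCGGGAAAtcgcct
Cdt1, plus strand, chr8:122568041-122568060: taccttTTTGGCGCcatggc
Mcm3, minus strand, chr1:20820280-20820299: tccgtgGCGGGAAAacttgg
Mcm5, plus strand, chr8:75109350-75109369: aagaacTTTCGCGCcaaaac
Mcm6, minus strand, chr1:128359739-128359758: gacgggTTTGGCGCgaagta
Mcm7, minus strand, chr5:138172035-138172054: cgaaccGCGGGAAAcagggt
These are 7 of the 12 genes with a word. Gins3, Lig1, Pola1, Pold1 and Rfc3 also held one.

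The window of Pcna held none of the E2F words. It held a CCAAT box, read here as ATTGG, and GC boxes, shown because Pcna had the smallest p for a rise in the group.
Pcna CCAAT box, minus strand, chr2:132253256-132253274: gggtacgATTGGtccttga
Pcna GC box, minus strand, chr2:132253284-132253303: cgcggtgGGGCGGgccttgc
Pcna GC box further upstream, minus strand, chr2:132253371-132253390: caaacttGGGCGGtgacgac

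Counts on genes ranged from 7407189 to 13092763 per library, and the members held between 215 counts over the 6 libraries (Gins1) and 6345 (Rrm1), with a lowest count of 18 in any library. Levels are given as CPM, the counts of a gene scaled to library totals on genes and adjusted by TMM factors. Markers of the labelled cell type were abundant, with Zic1, a granule neuron transcription factor, between 1085 and 1887 CPM. Atoh1, the defining factor of granule neuron progenitors, was at 0.754 CPM or below in every library and at 0 in 1 library. It was 1 of 7 progenitor markers, of which Gli1 was low as well. Other markers of that list were higher, such as Ccnd1 at 121 to 229 CPM and Gli2 at 5.97 to 16.7 CPM. The sum of the 7 was 323, 399 and 428 CPM in DMSO replicates 1, 2 and 3. In GSK-126 replicates 1, 2 and 3 it was 368, 395 and 445 CPM. Astroglial and fibroblast RNA was present throughout, with Gfap at 787 to 3300 CPM and Col1a1 at 2303 to 3716 CPM. Summed over the 7 astroglial markers, replicates 1, 2 and 3 stood at 7321, 2330 and 4028 CPM with DMSO and at 7661, 2230 and 4004 CPM with GSK-126. Which cells in these cultures carry the replication transcripts was not tested.

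Replication genes were expressed at clear levels in cultures that had been given AraC. Per kilobase of exon, a scale that adjusts for the length of all annotated exons of a gene, Pcna was highest at 29.0 CPM per kb and Cdc6 lowest at 1.25, a range of 23.1-fold. Rrm2, a ribonucleotide reductase subunit, came after Pcna at 15.0 CPM per kb, and the libraries of these 2 genes did not overlap. Of the 36 neighbouring pairs in this order, this was the single pair whose libraries were separate, so the order of the other members is not resolved between neighbours. The 6 subunits of the MCM2-7 ring, which assemble in equal numbers, lay between 4.66 (Mcm2) and 11.8 (Mcm4) CPM per kb. The annotated exons of Mcm2 span 6956 bp and those of Mcm4 3589 bp, and the part of annotated length in this range was not tested.

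**Figure D1:**
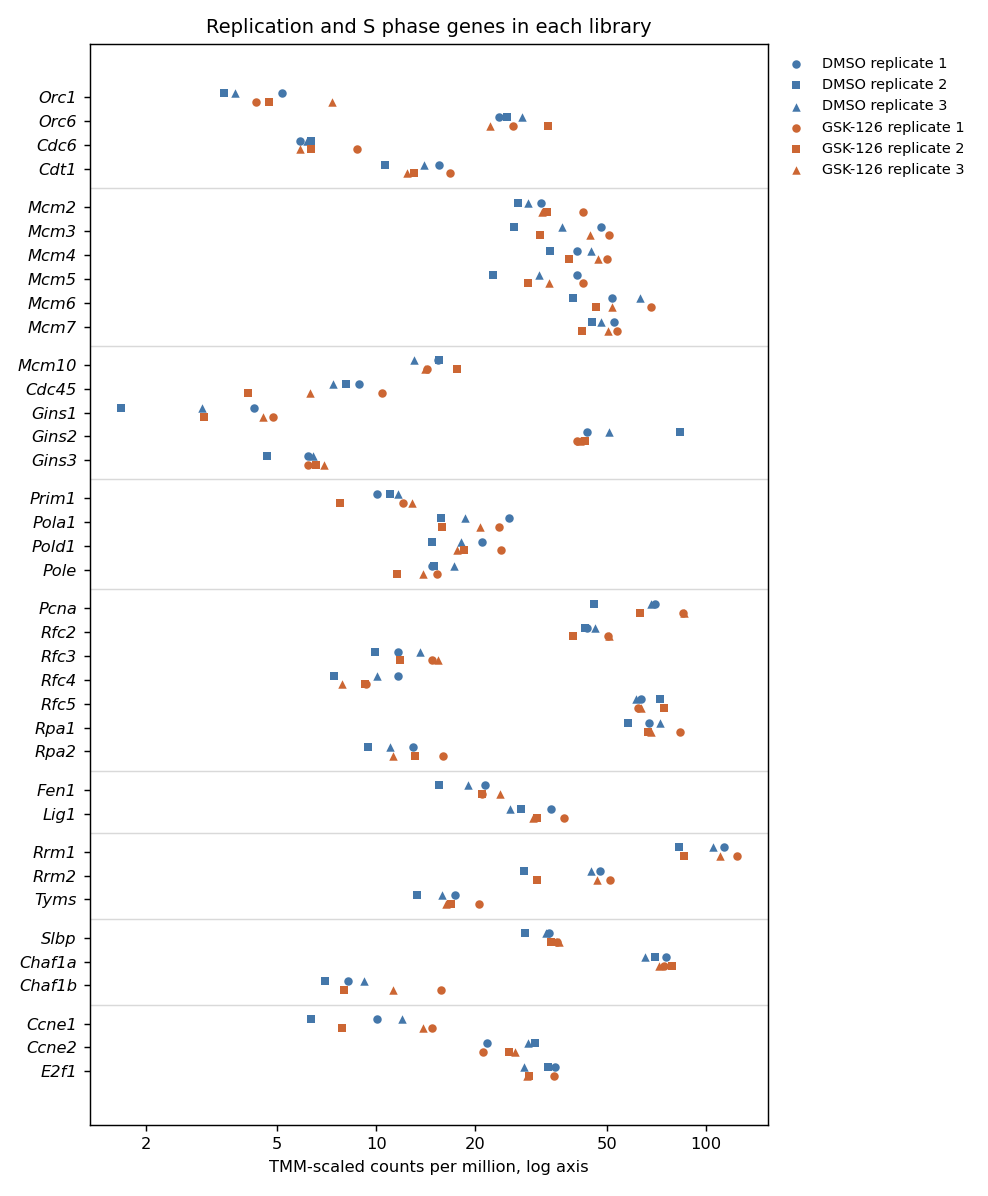
Level of each of the 37 genes in every library, as TMM-scaled CPM on a log axis, with DMSO in blue, GSK-126 in orange and the replicate number as the marker shape. Groups of genes by role are divided by grey lines, and replicate 2 (squares) is the lowest library of both groups for 16 genes, including 5 of the 6 MCM2-7 subunits.

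Differences of the replication genes with GSK-126 were small. Without pairing the libraries, no member passed an adjusted p of 0.05 by the quasi-likelihood test of edgeR, Benjamini-Hochberg adjusted over all genes tested (smallest adjusted p = 0.953). None passed an unadjusted p of 0.05 either, the smallest being 0.0615 for Gins2, while over all genes this threshold called 1.77% higher and 2.21% lower. No gene of the 16729 passed the adjusted threshold in this fit (0% higher and 0% lower), and DESeq2 called 0 of the 36 members to which it gave an adjusted p, beside 0.139% higher and 0.0146% lower of all genes given one. The median log2 fold change of the members was 0.14, with a range from -0.51 to 0.52 and 30 of 37 values above 0, beside a median of -0.0071 over all genes tested. The median stood at 0.048 without GSK-126 replicate 1, at 0.069 without DMSO replicate 2, at 0.22 without DMSO replicate 1 and at 0.23 without GSK-126 replicate 2.

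The replicate numbers pair the libraries, and with the number as a block 2 members passed. Pcna rose and Gins2 fell (edgeR, Benjamini-Hochberg adjusted p = 0.0139 and 0.0307), 1 member in each direction, where 3.35% of all genes were called higher and 5.09% lower. In this fit 3 members were higher and 1 lower before adjustment (p under 0.05), against 9.43% and 12.1% of all genes. The counts of higher members are near the background and those of lower members are below it, so no excess of calls is read from them. For 27 of the 37 members the 95% interval of the difference in the block fit lay within 1.5-fold either way, as it did for 60.6% of all genes. Without the block this held for 16 of the 37 members and for 6246 of the 16729 genes tested. With the block the median log2 fold change stayed at 0.14, with 29 values above 0.

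Most members lay slightly above 0. Within the pairs, 15 of the 37 genes were higher with GSK-126 in all 3 pairs and 2 were lower in all 3, where the shares over all genes were 19.5% and 22.8%. The median difference of the members within a pair was 0.13 in pair 1, 0.20 in pair 2 and 0.069 in pair 3 on the log2 scale. The summed level of the 37 genes was 1162, 998 and 1120 CPM in DMSO replicates 1, 2 and 3, and 1286, 1051 and 1163 CPM in GSK-126 replicates 1, 2 and 3. GSK-126 was thus the higher library in every pair, by a ratio of 1.11, 1.05 and 1.04, while the groups overlapped. The members share these 6 libraries and are not independent of each other, so no test was made over the list.

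**Figure D2:**
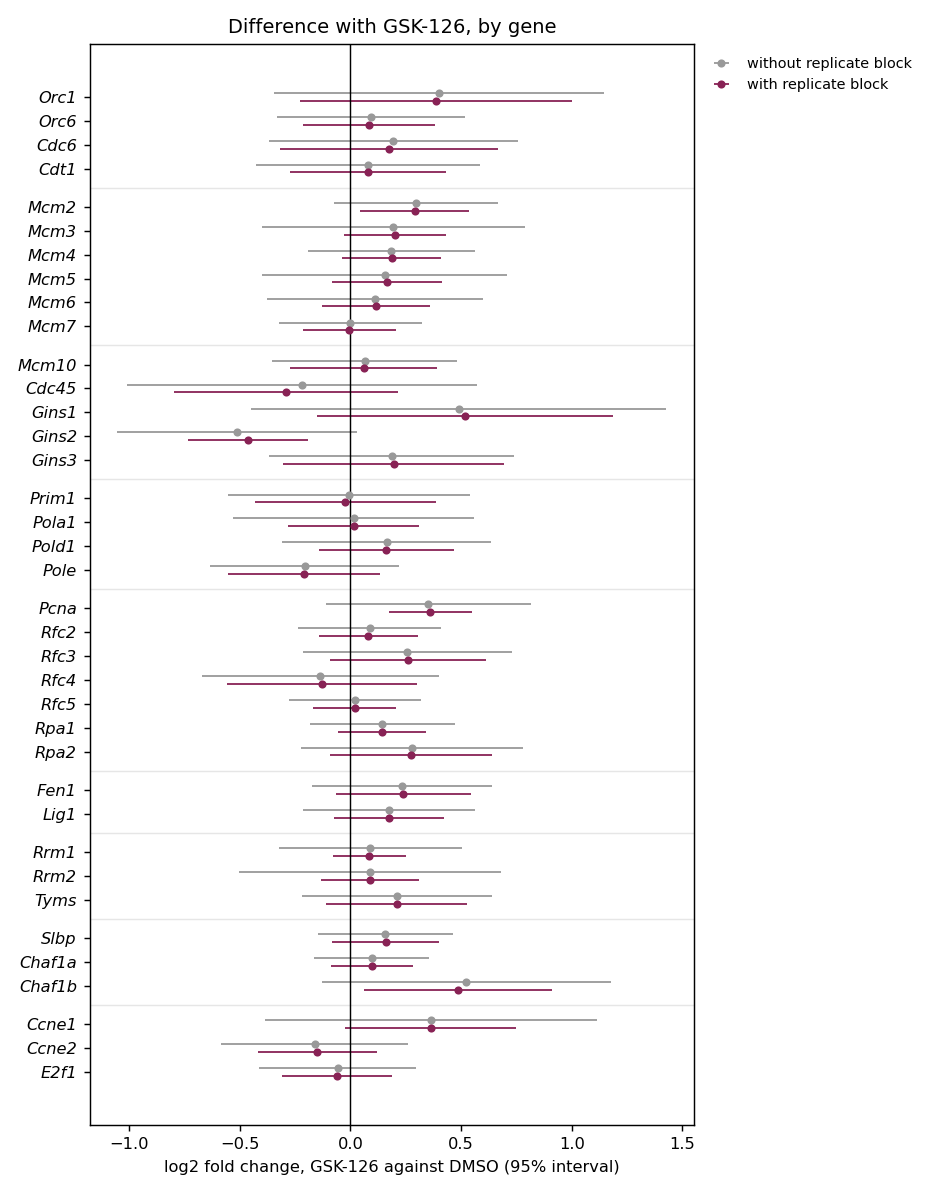
The log2 fold change of each gene, GSK-126 against DMSO, with its 95% interval, from the fit without the replicate block in grey and with it in purple. Points right of the vertical line at 0 are higher with GSK-126, and with the block the intervals of Mcm2, Gins2, Pcna and Chaf1b do not reach 0.

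The 4 licensing genes differed by log2 fold changes from 0.080 to 0.39 in the block fit, and none passed (smallest adjusted p = 0.493, edgeR with Benjamini-Hochberg adjustment). Orc1, the cell cycle-regulated ORC subunit (chromosome 4, 108579423 to 108614833, GRCm38), had the smallest p of this role. It stood at 5.19, 3.45 and 3.74 CPM in the DMSO libraries and at 4.32, 4.74 and 7.35 CPM in the GSK-126 libraries. Replicate 3 with GSK-126 was the highest library, and pair 1 went the other way from the other pairs. The log2 fold change of Orc1 was 0.39 ± 0.29 (SE, n = 3 pairs), and its interval ran from -0.23 to 1.00. Cdc6, which recruits CDT1 and the MCM ring to ORC and was the lowest member per kilobase, had 5.88, 6.34 and 6.17 CPM with DMSO and 8.72, 6.35 and 5.88 CPM with GSK-126. Only GSK-126 replicate 1 stood apart from the other 5 libraries of Cdc6.

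Subunits of the MCM ring leaned the same way without passing the test. With the block, 5 of the 6 were above 0 and Mcm7 was at -0.0042, with a largest log2 fold change of 0.29 (Mcm2). All 6 intervals of the block fit lay within 1.5-fold, beside 60.6% of all genes. In the fit without the block 2 of the 6 did. Mcm2 (chromosome 6, 88883474 to 88898780) was at 31.6, 26.9 and 28.9 CPM with DMSO and at 42.3, 33.0 and 31.9 CPM with GSK-126. All 3 GSK-126 libraries lay above all 3 DMSO libraries, with GSK-126 replicate 1 well above the rest. Mcm2 and Slbp were the 2 members whose groups separated upward, beside 4.72% of all genes, and for Mcm2 an exact permutation test gave p = 0.1 (two-sided), the smallest that 3 against 3 libraries allow. The log2 fold change of Mcm2 was 0.29 ± 0.12 (SE, n = 3 pairs), which did not pass (adjusted p = 0.153, edgeR with Benjamini-Hochberg adjustment).

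Among the factors that activate the helicase, Gins2 fell in the fit with the block, and how it differed from the other GINS genes was not tested. Gins2 (chromosome 8, 120578633 to 120589304, minus strand) encodes the PSF2 subunit and was at 43.6, 83.5 and 50.9 CPM with DMSO and at 40.6, 43.0 and 41.5 CPM with GSK-126. The GSK-126 libraries were nearly equal and all below the DMSO libraries, of which replicate 2 was far above the others. It was the 1 member whose groups separated downward, beside 4.72% of all genes (exact permutation test, two-sided, p = 0.1). The log2 fold change of Gins2 was -0.46 ± 0.13 (SE, n = 3 pairs) with the block and -0.51 ± 0.23 without it. In block fits it was -0.20 without pair 2 (adjusted p = 0.439) and -0.62 and -0.54 without pairs 1 and 3 (edgeR, Benjamini-Hochberg adjustment), so the call rests on pair 2. DESeq2 with the block gave Gins2 an adjusted p of 0.0814.

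Gins2 overlaps another gene for most of its exon length. Of its 4097 exon bases, 2758 (67.3%) overlap exons of Gse1 on the opposite strand, where the 3′ ends of the converging genes run past each other. Gse1 (chromosome 8, 120228456 to 120581390) encodes a chromatin protein found with corepressor complexes and stood at 77.6, 154 and 102 CPM with DMSO and at 68.5, 93.3 and 71.5 CPM with GSK-126. It too was highest in DMSO replicate 2 and lower with GSK-126 in every pair, by 0.48 ± 0.096 on the log2 scale (SE, n = 3 pairs, adjusted p = 0.00285 with the block, edgeR with Benjamini-Hochberg adjustment). The ratio of Gins2 to Gse1 counts stayed between 0.461 and 0.592 over the 6 libraries. The strand setting of the counting is not given in the sources used here, so how reads in the shared bases were assigned is uncertain. Of the reads listed per library, 0.8834% to 1.0954% were set aside as ambiguous and 45.3% to 46.6% as no feature. What these shares say about the strand setting was not tested. The part of Gse1 in the counts of Gins2 was not tested. Over the group, exons of 14 of the 37 genes overlap a gene on the opposite strand, 5 of them by 500 bp or more. The other GINS subunits among the members were Gins1 with means of 2.97 and 4.14 CPM and Gins3 with 5.77 and 6.58 CPM (DMSO and GSK-126). Their log2 fold changes were 0.52 ± 0.32 and 0.20 ± 0.24 (SE, n = 3 pairs), neither passing the test. Gins4, from the list of other replication genes, was at 13.5 CPM per kb, beside 12.3 for Gins2, 2.34 for Gins1 and 2.28 for Gins3. Mcm10 and Cdc45, the latter at -0.29 ± 0.24, did not pass either.

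**Figure D3:**
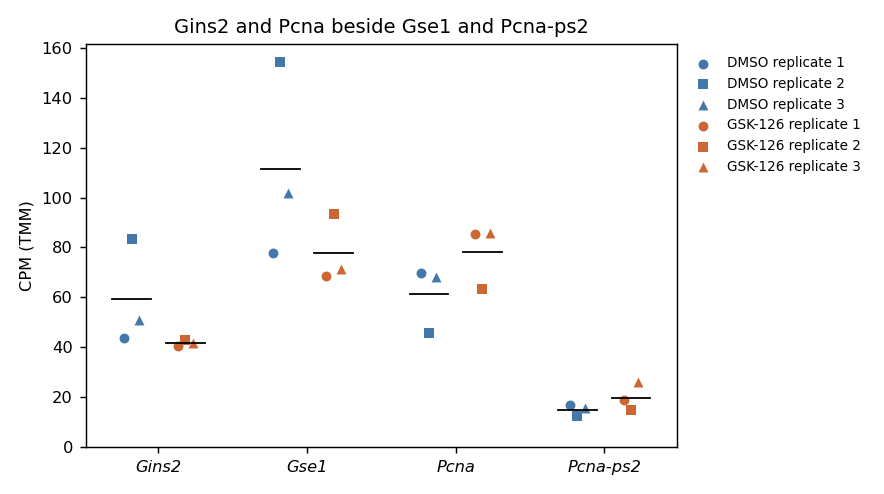
TMM-scaled CPM of Gins2 and of Gse1, which overlaps it on the opposite strand, and of Pcna and its processed pseudogene Pcna-ps2, with each point a library, DMSO in blue, GSK-126 in orange and black lines at the group means (n = 3). DMSO replicate 2 is the highest library of both Gins2 (83.5) and Gse1 (154).

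Polymerase and primase genes showed no common direction. The log2 fold changes of Prim1, Pola1, Pold1 and Pole lay between -0.21 and 0.16 with the block, and none passed (smallest adjusted p = 0.510, edgeR with Benjamini-Hochberg adjustment). Pole, the catalytic subunit of leading strand polymerase epsilon (chromosome 5, 110286306 to 110337474), was at 14.8, 15.0 and 17.2 CPM with DMSO and at 15.3, 11.5 and 13.9 CPM with GSK-126. It was lower with GSK-126 in pairs 2 and 3 and slightly higher in pair 1, with a log2 fold change of -0.21 ± 0.16 (SE, n = 3 pairs).

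Pcna, the sliding clamp, was the 1 member that rose in the fit with the block. Pcna (chromosome 2, 132249162 to 132253314, minus strand) was at 69.9, 45.7 and 68.0 CPM with DMSO and at 85.2, 63.2 and 85.9 CPM with GSK-126. Replicate 2 was the low library of both groups, so the groups overlapped although GSK-126 was higher in every pair, by 0.28, 0.46 and 0.33 on the log2 scale. With the block the log2 fold change of Pcna was 0.36 ± 0.090 (SE, n = 3 pairs, 95% interval 0.17 to 0.55), and DESeq2 with the block gave an adjusted p of 0.0372. That fit called 1 of the 28 members given an adjusted p higher and 0 lower, beside 3.28% and 5.52% of all genes given one. Without the block it was 0.35 ± 0.20 (adjusted p = 0.953, edgeR with Benjamini-Hochberg adjustment), and an exact permutation test over the unpaired libraries gave p = 0.3 (two-sided). In block fits the log2 fold change stayed between 0.31 and 0.42 when a pair was left out, with an adjusted p of 0.0700 without pair 2 (edgeR, Benjamini-Hochberg adjustment).

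The measured transcript of Pcna shares sequence with a pseudogene. Of its 50-base words, 19.1% also occur in the processed pseudogene Pcna-ps2 (chromosome 19, 9283380 to 9284160), which was listed at 16.8, 12.3 and 15.7 CPM with DMSO and at 18.6, 14.6 and 25.9 CPM with GSK-126. The pseudogene was also higher in every pair, by 0.38 ± 0.16 on the log2 scale (SE, n = 3 pairs), without passing (adjusted p = 0.167 with the block, edgeR with Benjamini-Hochberg adjustment). Its counts were 0.219 to 0.302 times those of Pcna, and how the authors' counting divided reads between the 2 is uncertain. Mcm7 shares 16.5% of its words with Gm5487, which had 7 counts or fewer in every library.

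The clamp loader subunits Rfc2 to Rfc5 and the single-strand binding proteins Rpa1 and Rpa2 did not pass in any of these fits. Rfc3 and Rpa2 were higher in all 3 pairs, with log2 fold changes of 0.26 ± 0.17 and 0.27 ± 0.18 (SE, n = 3 pairs). Rfc5, among the most abundant of the group with 65.7 ± 5.86 CPM in the DMSO libraries and 66.6 ± 6.69 CPM in the GSK-126 libraries (SD, n = 3), differed by 0.019 on the log2 scale with an interval of -0.17 to 0.21.

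Fen1 and Lig1, which trim and seal Okazaki fragments, had log2 fold changes of 0.24 and 0.17 in the block fit. Fen1, the flap endonuclease (chromosome 19, 10199132 to 10204169), was at 21.3, 15.5 and 19.0 CPM with DMSO and at 20.9, 21.001 and 23.8 CPM with GSK-126. The groups overlapped through DMSO replicate 1, and the adjusted p of Fen1 was 0.367 (edgeR with Benjamini-Hochberg adjustment). Of its exon bases, 78.8% overlap the antisense gene Gm10143, the largest such share in the group. Gm10143 stood at 27.0, 16.3 and 21.8 CPM with DMSO and at 22.9, 19.2 and 24.3 CPM with GSK-126. The part of Gm10143 in the counts of Fen1 was not tested.

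Nucleotide supply genes did not pass the test. For all 3 the range between culture pairs exceeded the difference with the inhibitor, as it did for 84.5% of all genes. Rrm1, Rrm2 and Tyms had log2 fold changes from 0.086 to 0.21 with the block, and the groups overlapped for each. Tyms, thymidylate synthase (chromosome 5, 30058202 to 30073617), was at 17.3, 13.3 and 15.8 CPM with DMSO and at 20.5, 16.8 and 16.3 CPM with GSK-126, a log2 fold change of 0.21 ± 0.15 (SE, n = 3 pairs, adjusted p = 0.465, edgeR with Benjamini-Hochberg adjustment). Rrm2 ran lower in replicate 2 of both groups, at 28.2 and 30.7 CPM, than in the other 4 libraries, at 44.9 to 51.1 CPM.

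Of the chromatin assembly genes, Chaf1b, the p60 subunit of the histone chaperone CAF-1, had the second largest rise in the block fit without passing. Chaf1b (chromosome 16, 93883901 to 93906115) was at 8.19, 6.99 and 9.21 CPM with DMSO and at 15.8, 7.97 and 11.2 CPM with GSK-126. Its level in GSK-126 replicate 1 was far above the other libraries, and the groups overlapped in replicate 2. The log2 fold change of Chaf1b was 0.49 ± 0.20 (SE, n = 3 pairs, adjusted p = 0.164, edgeR with Benjamini-Hochberg adjustment) and 0.25 without pair 1. Chaf1a, the p150 subunit, averaged 70.3 ± 5.14 CPM in the DMSO libraries and 75.2 ± 3.57 CPM in the GSK-126 libraries (SD, n = 3), and 52.5% of its exon bases overlap Ubxn6 on the opposite strand. Ubxn6 stood at a similar level, 67.1 ± 4.18 and 67.8 ± 3.71 CPM (SD, n = 3). The part of Ubxn6 in the counts of Chaf1a was not tested. Slbp, which binds the stem loop of replication-dependent histone mRNAs, was at 33.3, 28.2 and 32.7 CPM with DMSO and at 35.4, 33.8 and 35.9 CPM with GSK-126. Its groups did not overlap, yet the nearest libraries were less than 1 CPM apart and the log2 fold change was 0.16 ± 0.12 (SE, n = 3 pairs).

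The genes of S phase entry went in different directions, none of them past the test. Ccne1, a cyclin that activates CDK2 (chromosome 7, 38097984 to 38107534), was at 10.04, 6.34 and 11.99 CPM with DMSO and at 14.8, 7.86 and 13.9 CPM with GSK-126. Replicate 2 was the low library of both groups, and GSK-126 was the higher library of each pair. The log2 fold change of Ccne1 was 0.36 ± 0.18 (SE, n = 3 pairs, adjusted p = 0.267, edgeR with Benjamini-Hochberg adjustment). Ccne2 was lower in every pair, by 0.15 ± 0.13, and E2f1, the transcription factor that drives many of these genes, was at 32.0 ± 3.59 and 30.7 ± 3.39 CPM (SD, n = 3).

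For most members, as for most genes, differences between the culture pairs were larger than those with the inhibitor. For 34 of the 37 genes the range of the 3 pair means exceeded the mean difference between GSK-126 and DMSO, as it did for 84.5% of all genes. The median range over the members was 0.36 on the log2 scale, beside 0.39 over all genes tested. The median size of the treatment difference was 0.16 for the members and 0.16 over all genes tested. Orc1, Slbp and Fen1 were the members whose range was the smaller. Replicate 2 was the lowest library with DMSO for 25 genes, with GSK-126 for 19 and in both groups for 16, where the share of all genes with replicate 2 lowest in both groups was 24.2%. It was highest in both groups for 3 members, against 26.6% of all genes.

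**Figure D4:**
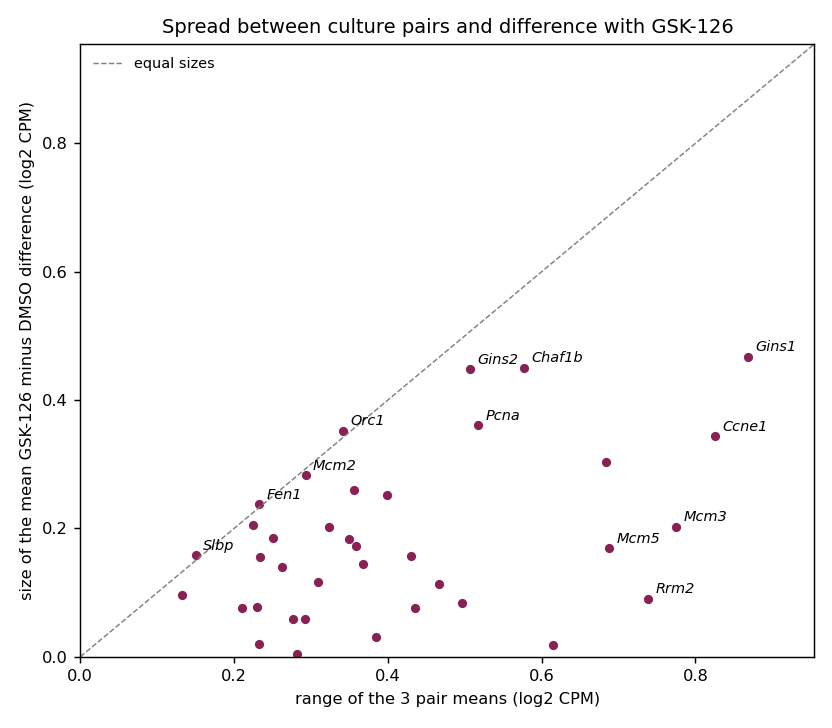
For each of the 37 genes, the range of the 3 pair means (x axis) and the size of the mean difference between GSK-126 and DMSO (y axis), both in log2 CPM, with a dashed line where the 2 are equal. All but 3 genes lie below the line, and Gins1, Ccne1, Mcm3, Rrm2 and Mcm5 have the widest ranges between pairs, 0.69 to 0.87.

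The culture pairs differed in cell type markers as well. The astroglial sum given above was lowest in replicate 2 of both groups, whereas the sum of 6 mature granule neuron markers was highest there, at 1262 CPM in the DMSO and 767 CPM in the GSK-126 library against 326 to 612 CPM in the other libraries. The summed MCM2-7 level was 265, 194 and 253 CPM in DMSO replicates 1, 2 and 3 and 307, 220 and 259 CPM in GSK-126 replicates 1, 2 and 3. It followed the same order of replicates as the astroglial sum in both groups, highest in replicate 1 and lowest in replicate 2. The order was not particular to astroglia. In DMSO replicates 1, 2 and 3 the oligodendrocyte lineage sum was 737, 427 and 588 CPM and the microglial sum 320, 149 and 225 CPM. Both kept this order with GSK-126, whereas the vascular and fibroblast sum was highest in replicate 3 of both groups. The sum of 12 mitosis markers was lowest in replicate 2 too, at 334 and 324 CPM against 379 to 520 CPM elsewhere. Replication genes outside the group did not keep to this. The sum of 60 of them, described below, was highest in replicate 2 with DMSO, at 1684, 1721 and 1646 CPM in replicates 1, 2 and 3. With GSK-126 that sum was lowest in replicate 2, at 1733, 1625 and 1647 CPM. The part of the cell types in the level of the replication genes was not tested.

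Some cell type markers also moved with the inhibitor in the fit with the block, where 3.35% of all genes were called higher and 5.09% lower. In the edgeR fit without the block no gene was called. With the block, 5 of 6 mature granule neuron markers fell, 5 of 8 granule neuron markers fell and 1 rose, and 3 of 6 interneuron and Purkinje cell markers fell. Of the vascular and fibroblast markers, 3 of 6 tested rose, and the sum of that list was higher with GSK-126 in each pair, by ratios of 1.29, 1.08 and 1.1003. Among the 7 astroglial and the 6 microglial markers, 1 of each rose, the astroglial sum differed by ratios of 1.05, 0.957 and 0.994, and the microglial sum was higher with GSK-126 in each pair, by 1.16, 1.37 and 1.23. Of the 7 oligodendrocyte lineage markers 1 rose, with ratios of the sum of 1.02, 1.15 and 1.15. Of the 5 progenitor markers tested 1 rose and 1 fell. The part of these markers in the values of the replication genes was not tested.

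**Figure D5:**
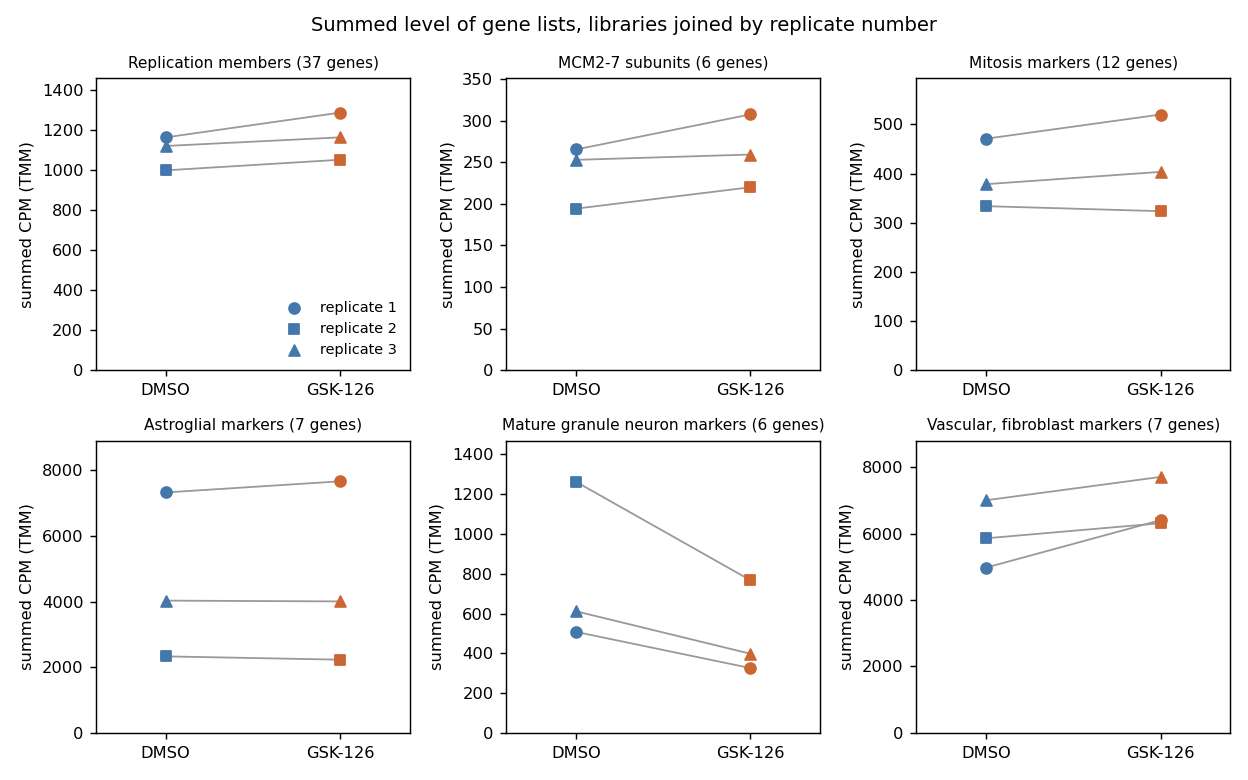
Summed TMM-scaled CPM of 6 gene lists in each library, with libraries of the same replicate number joined by a line, DMSO in blue and GSK-126 in orange. The replication and MCM2-7 sums are higher with GSK-126 in all 3 pairs and lowest in replicate 2, the mature granule neuron sum is lower with GSK-126 in all 3 pairs, and the astroglial sum separates the replicates and not the groups.

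Among other genes of the pathway, 1 passed the test, in the fit with the block. Of 60 other replication and S phase genes, such as the remaining ORC subunits, polymerase subunits and fork protection factors, 59 were tested, and Pold4 was at 0 in every library. None passed without the block, where 1 gene above 0 and 2 below it had p under 0.05 before adjustment, and DESeq2 called 0, with an adjusted p given to 57 of the genes without the block and 44 with it. In edgeR with the block, 0 were called higher and 1 lower, with 5 on the higher and 3 on the lower side at p under 0.05 before adjustment. The shares over all genes were 3.35% and 5.09% after adjustment and 9.43% and 12.1% before it, and the median log2 fold change of the list was 0.06. Donson, a replisome factor, was the 1 gene called, at 58.5, 72.0 and 54.1 CPM with DMSO and at 45.5, 52.0 and 48.1 CPM with GSK-126. Its groups did not overlap, and its log2 fold change was -0.34 ± 0.099 (SE, n = 3 pairs, adjusted p = 0.0386, edgeR with Benjamini-Hochberg adjustment). The call of Donson was lost without pair 1 (adjusted p = 0.216) and without pair 2 (adjusted p = 0.234), and its exons overlap Son by 103 bp and Atp5o by 287 bp (edgeR, Benjamini-Hochberg adjustment).

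The other genes with the smallest p in this list were on both sides. Clspn, the checkpoint adaptor claspin, was higher by 0.52 ± 0.18, Cdk2 by 0.39 ± 0.15 and Ung, the uracil glycosylase, by 0.49 ± 0.20 on the log2 scale, while Orc3 was at -0.30 ± 0.094 and Mcm9, a helicase of DNA repair, at -0.31 ± 0.12 (SE, n = 3 pairs). None of these passed, Orc3 coming nearest (adjusted p = 0.0505 with the block, edgeR with Benjamini-Hochberg adjustment). The 12 mitosis markers gave no call in either edgeR fit or with DESeq2. Their median log2 fold change was 0.11 without the block, where edgeR put 0 of them under 0.05 before adjustment. With the block only Aurka was under 0.05 (log2 fold change 0.41 ± 0.18, SE, adjusted p = 0.185, edgeR with Benjamini-Hochberg adjustment). Mki67 was at 111, 84.7 and 76.2 CPM with DMSO and at 136, 74.4 and 84.7 CPM with GSK-126, and its pairs differed in direction.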

How the data were processed

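Poly(A) RNA-seq libraries of 3 DMSO and 3 GSK-126 CGN cultures were analysed, grouped by the titles of the samples. Per the labels and the study's methods, the authors trimmed paired reads with Trimmomatic 0.38, aligned them to mm10 with STAR 2.7.2b, and deposited raw HTSeq exon counts per gene, without normalization. The strand setting is not given in the sources used here. The 55341 symbols matched GENCODE M21, which gave coordinates and overlaps. Lines naming no gene held 58.7% to 60.7% of the reads listed and were left out, so depth was 7407189 to 13092763 counts per library. Within groups, libraries differed by a chi-square per degree of freedom of 12.9 or more, so none was a copy.

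Genes were filtered with filterByExpr, TMM factors were computed, and counts were tested with edgeR 4.0.16 under R 4.3.3 (glmQLFit and glmQLFTest, adjusted p under 0.05 over all genes tested, Benjamini-Hochberg), after a check on simulated data. The biological coefficient of variation was 24.0%, and 9.74% with the replicate number as a block. Deviations from group means of libraries with the same number had correlations across genes of 0.56, 0.63 and 0.49, and those with different numbers 0.0064 or less, so the numbers were taken to pair the libraries. The labels do not say what the number marks. Differences within pairs used log2 of CPM plus 0.5. Intervals and SE values come from the fits. Without the block they include the spread between cultures. With the block they leave out the differences shared by both libraries of a pair. Alternatives were DESeq2 1.42.0 with and without the block, upper-quartile factors, total counts, other filters, and each library or pair left out.

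Members, lists, motifs and the naming rule were chosen with earlier results of these data known. Values per library are given for members past the threshold in either fit, otherwise for the member of each role with the smallest p with the block, and for the highest and lowest member per kilobase; Slbp, Gse1, Pcna-ps2 and the printed E2F sites were added after their values were seen. Of the other pathway genes, the 3 with the smallest p with the block in each direction are named.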

Additional observations from a re-analysis of the deposited data

How the results depend on the processing

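Over all genes, the count of calls rose from 0 higher and 0 lower to 561 and 851 with the replicate block, 19 and 2 with DESeq2, 359 and 604 with DESeq2 and the replicate block, and 9 and 1 with no filter. Over the fits that left out a library or a pair, it ranged from 0 to 558 higher and from 0 to 719 lower. Members called were 1 higher and 1 lower with the replicate block and 1 higher with DESeq2 and the block, ranging from 0 to 1 in each direction when a library or pair was left out. The other replication genes had 1 lower with the block, ranging from 0 to 2. The members' median log2 fold change of 0.14 ranged from 0.048 to 0.23 when a library or pair was left out.

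Of 704 values of 44 named genes under 16 alternatives, 46 changed sign, in 15 genes, and the cause was not tested. Mcm7 was at -0.0042 with the replicate block. Prim1, at -0.0041, turned to 0.00093 with DESeq2, 0.032 with upper-quartile factors, 0.031 with total counts, 0.012 with no filter and 0.014 with at least 10 counts in every library. The other changes came from leaving out a library or a pair, with these ranges on the log2 scale: Orc6 -0.079 to 0.28, Cdc6 -0.018 to 0.30, Cdt1 -0.057 to 0.21, Mcm5 -0.032 to 0.39, Mcm6 -0.054 to 0.32, Mcm7 -0.061 to 0.11, Mcm10 -0.029 to 0.16, Cdc45 -0.64 to 0.068, Prim1 -0.16 to 0.21, Pola1 -0.12 to 0.24, Rfc4 -0.33 to 0.025, Rfc5 -0.048 to 0.098, Rrm1 -0.030 to 0.24, Rrm2 -0.11 to 0.30 and E2f1 -0.14 to 0.023. Beyond the calls of Pcna, Gins2, Gse1 and Donson given above, the replicate block changed no call among the members and the other replication genes. DESeq2 with the block gave 9 members no adjusted p. With 3 libraries a group, an unpaired exact test cannot reach p below 0.1.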
